A study of Arabidopsis thaliana with 6 samples.

Results

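The comparison was between the 3 sorted quiescent centre (QC) libraries with the most WOX5 transcript and the 3 with the least, out of 6 libraries. The libraries were selected on WOX5 itself, AT3G11260, in CPM (the estimated count of a gene scaled by the total of its library). The high-WOX5 libraries were bravo-2 replicate 1 at 561.5 CPM, WT replicate 3 at 377.2 CPM and WT replicate 2 at 281.7 CPM, and the low-WOX5 libraries were bravo-2 replicate 2 at 125.1 CPM, bravo-2 replicate 3 at 78.6 CPM and WT replicate 1 at 68.1 CPM. The values next to the division were 281.7 CPM on the high side and 125.1 CPM on the low side, a ratio of 2.25. Because a measured value chose the libraries, and the sort itself used the WOX5 promoter, all differences between the sets are given as descriptions, without a test, and WOX5 is left out of them.

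All cells came from primary roots of 5-day-old seedlings that carried GFP under the WOX5 promoter, in a bravo-2 background (a knockout line of BRAVO) for 3 libraries and in a wild-type background (WT) for the other 3. Protoplasts were sorted by GFP and their RNA was amplified from low input before sequencing. Both sets therefore hold both genotypes, 1 bravo-2 and 2 WT libraries in the high-WOX5 set and 2 bravo-2 and 1 WT libraries in the low-WOX5 set. Genotype is not the contrast, and the labels do not say whether the libraries of a genotype came from separate plant cultures.

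The QC is a small group of rarely dividing cells in the root tip around which the stem cells of all root tissues lie. WOX5 is a homeodomain transcription factor whose transcript marks the QC and which keeps the neighbouring columella stem cells undifferentiated, and BRAVO (MYB56) is an R2R3-MYB factor that holds back QC division. PLETHORA factors, SCARECROW, auxin made and transported in the root tip, and secreted peptides such as RGF1 act with them to hold the niche in place. Epidermal cells that form root hairs, by contrast, express a cascade from RHD6 to RSL4 and then wall and tip growth genes, and endodermal cells express the CASP proteins of the Casparian strip.

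The libraries held 10990221 to 14425263 estimated counts, and 3 counts, the smallest number taken as shown, equalled 0.208 to 0.273 CPM. After scaling with TMM, 15738 genes that averaged 4 CPM or more in a genotype were described. One library stood apart. On the first principal component, with 72.6% of the variance between libraries, bravo-2 replicate 1 lay at 1.31, with WT replicate 2 at 0.12, WT replicate 3 near 0 and bravo-2 replicate 2 at 0.10, and with bravo-2 replicate 3 at -0.84 and WT replicate 1 at -0.70. Counts and list medians that rest on bravo-2 replicate 1 are also given without it. BRAVO, the gene disrupted in bravo-2, had 13.8, 10.3 and 11.8 CPM in bravo-2 replicates 1 to 3 and 13.3, 37.5 and 60.5 CPM in WT replicates 1 to 3, so that WT replicate 1 lay inside the range of the bravo-2 libraries; the labels were kept as given. Between bravo-2 and WT themselves, edgeR's quasi-likelihood test found 0 of 15739 genes at an adjusted p below 0.05 (0.0%), with 125 genes at an unadjusted p below 0.05 and 13 genes called by DESeq2. The paper reported an effect of sorting, corrected for it and called genes between the genotypes with another method. No such correction was made here.

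The high-WOX5 libraries differed from the low-WOX5 libraries at many genes. All 3 values lay above all 3 of the other set at 2475 genes (15.7%) and below them at 2110 genes (13.4%), on the scale of log2(CPM + 1). With a difference of the set means of at least 1 on that scale, 1436 genes were higher (9.12%) and 1169 were lower (7.43%) in the high-WOX5 libraries. These shares belong to the contrast that chose the libraries, and nothing is read from them. The counts of list members given below stand beside these shares. Differences of at least 4-fold were unequal in number, with 44 genes higher and 386 lower. Without bravo-2 replicate 1, 1225 genes were higher and 825 lower, of which 1106 and 724 were among those counted with all 6 libraries. Scaling changed the balance: 55.1% of the calls were higher genes with TMM, 72.8% when CPM was taken over the library total and 42.8% with DESeq2's size factors. Taking CPM over the library total moved the median difference of all genes to 0.36, against 0.07 with TMM.

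Each genotype had libraries in both sets. Within bravo-2 the difference was replicate 1 minus the mean of replicates 2 and 3, and within WT the mean of replicates 2 and 3 minus replicate 1. Over all genes the bravo-2 difference had an SD of 1.70 and the WT difference an SD of 0.96. The 2 differences share no library and had the same sign at 85.8% of the genes, with a Pearson r of 0.72 and a Spearman rho of 0.80 across genes, which are not independent replicates. In both genotypes at once, 1903 genes were higher and 1722 lower by at least 1 on the log2 scale. Opposite differences of that size were rarer, with 33 genes higher within WT and lower within bravo-2 and 16 the other way round. The library titles carry a code whose meaning is not given in the sources used here. Its first number is shared by bravo-2 replicate 1 and WT replicate 1, and between these libraries 1321 of the 1436 higher and 1142 of the 1169 lower genes differed by at least 2-fold. It is also shared by WT replicate 2 and bravo-2 replicate 3, where 1299 and 967 did. Its last number is shared by bravo-2 replicates 1 and 2, where 835 and 1069 did, and its other values each hold libraries of 1 set only, where the code and the set cannot be told apart. The 1436 and 1169 genes were counted because these same libraries do not overlap. Their direction within a shared number was therefore fixed, and nothing is read from these counts.

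**Figure D1:**
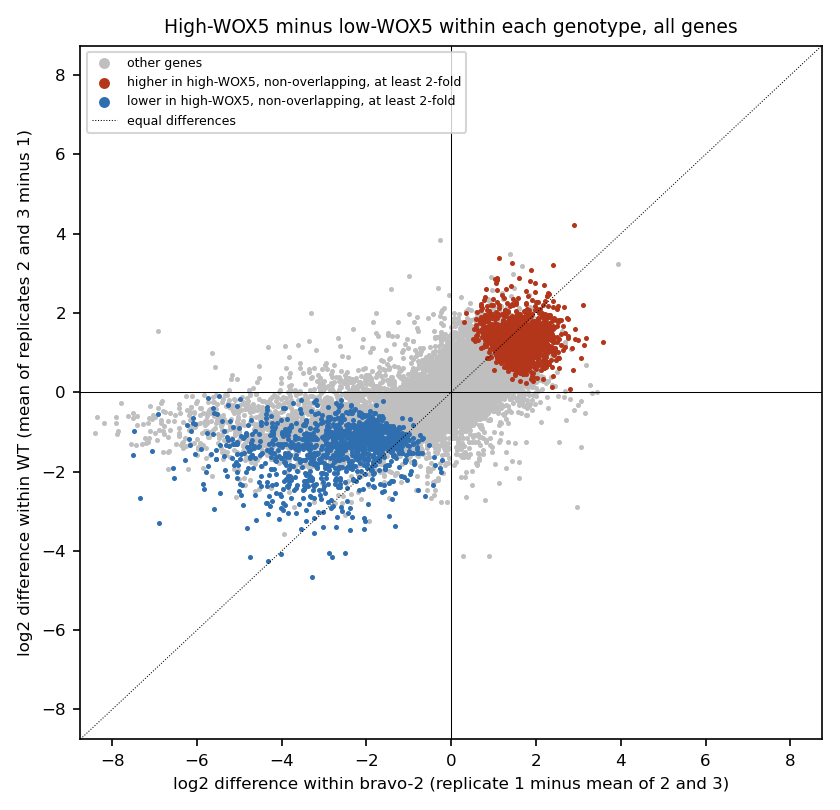
Each point is 1 of 15738 genes, with its log2 difference between high-WOX5 and low-WOX5 libraries within bravo-2 on the horizontal axis and within WT on the vertical axis. Red and blue points are the 1436 higher and 1169 lower genes. The differences have the same sign in both genotypes at 85.8% of the genes, and the spread is wider within bravo-2 (SD 1.70) than within WT (SD 0.96).

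Genes of the QC and its stem cell niche were higher in the high-WOX5 libraries as a group. Of 22 genes listed, 20 passed the filter on low values and all 20 had a positive difference. At 16 the sets did not overlap and 15 of these differed by at least 2-fold, beside 15.7% and 9.12% of all genes. The median difference of the 20 genes was 1.49, beside 0.07 over all genes, and it was 1.97 within bravo-2, 1.33 within WT and 1.25 without bravo-2 replicate 1. Their summed level was 7303, 3749 and 4432 CPM in the high-WOX5 libraries, against 2672, 1190.3 and 1700.3 CPM in the low-WOX5 libraries. Here and below, the values of a set are listed in falling order of WOX5. Of the 20 genes, 17 were highest in bravo-2 replicate 1 and 16 were lowest in bravo-2 replicate 3. In bulk samples, fewer cells of a type and less RNA per cell cannot be told apart. The remaining 2 listed genes, ERF115 and CLE40, had at most 2 counts in any library.

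The PLETHORA and related AP2 factors set the level of stemness along the root tip. PLT1 (AT3G20840) had 1509.6, 718.4 and 865.4 CPM in the high-WOX5 libraries, against 503.5, 242.2 and 308.5 CPM in the low-WOX5 libraries, a log2 difference of 1.54. PLT2 had 483.6, 230.0 and 294.3 CPM in the high-WOX5 libraries, against 178.8, 55.6 and 93.5 CPM in the low-WOX5 libraries, with a difference of 1.70. The 2 sets did not overlap at either gene, and bravo-2 replicate 1 was the highest library at both. BBM (1.57) and PLT3 (1.39) had log2 differences of similar size, and PLT3 shares reads with other genes, since its estimated counts were fractional in all 6 libraries.

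SCR, SHR and the zinc finger proteins that bind them specify the QC from the radial side. SCR (AT3G54220, chr3:20069987-20072878 in TAIR10.1) had 635.5, 312.2 and 230.9 CPM in the high-WOX5 libraries, against 158.5, 69.0 and 95.9 CPM in the low-WOX5 libraries, which is a log2 difference of 1.81. Its upstream partner SHR, transcribed in the stele, had 1.64, 5.47 and 4.29 CPM in the high-WOX5 libraries, against 4.63, 1.88 and 3.51 CPM in the low-WOX5 libraries, a log2 difference of 0.10 with overlapping sets. The zinc finger genes MGP, JKD and NUC had log2 differences of 1.69, 1.42 and 0.99, each without overlap. SCL3, a GRAS gene listed with the endodermis, had 116.3, 55.4 and 63.9 CPM in the high-WOX5 libraries, against 33.9, 23.2 and 17.0 CPM in the low-WOX5 libraries. SCR and these 4 genes were thus higher in every high-WOX5 library, while SHR stayed low in both sets.

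A peptide signal and other regulators of the niche were higher as well. RGF1, a secreted peptide that maintains the PLETHORA gradient, had 73.8, 45.7 and 41.0 CPM in the high-WOX5 libraries, against 24.2, 7.72 and 14.0 CPM in the low-WOX5 libraries, the largest log2 difference of the list at 1.82. The WIP zinc finger genes NTT, WIP4 and WIP5 had log2 differences of 1.31, 1.49 and 1.55. TEL1, an RNA-binding protein of the Mei2 family, and SPT, a bHLH factor, had 1.57 and 1.48. BRAVO had 13.8, 60.5 and 37.5 CPM in the high-WOX5 libraries, against 10.3, 11.8 and 13.3 CPM in the low-WOX5 libraries, a log2 difference of 1.36. Its sets did not overlap, but bravo-2 replicate 1 was only just above WT replicate 1, and the difference was 0.30 within bravo-2 and 1.77 within WT. TPL, ACR4 and AGL42 had positive differences with overlapping sets (0.39, 0.90 and 1.199).

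**Figure D2:**
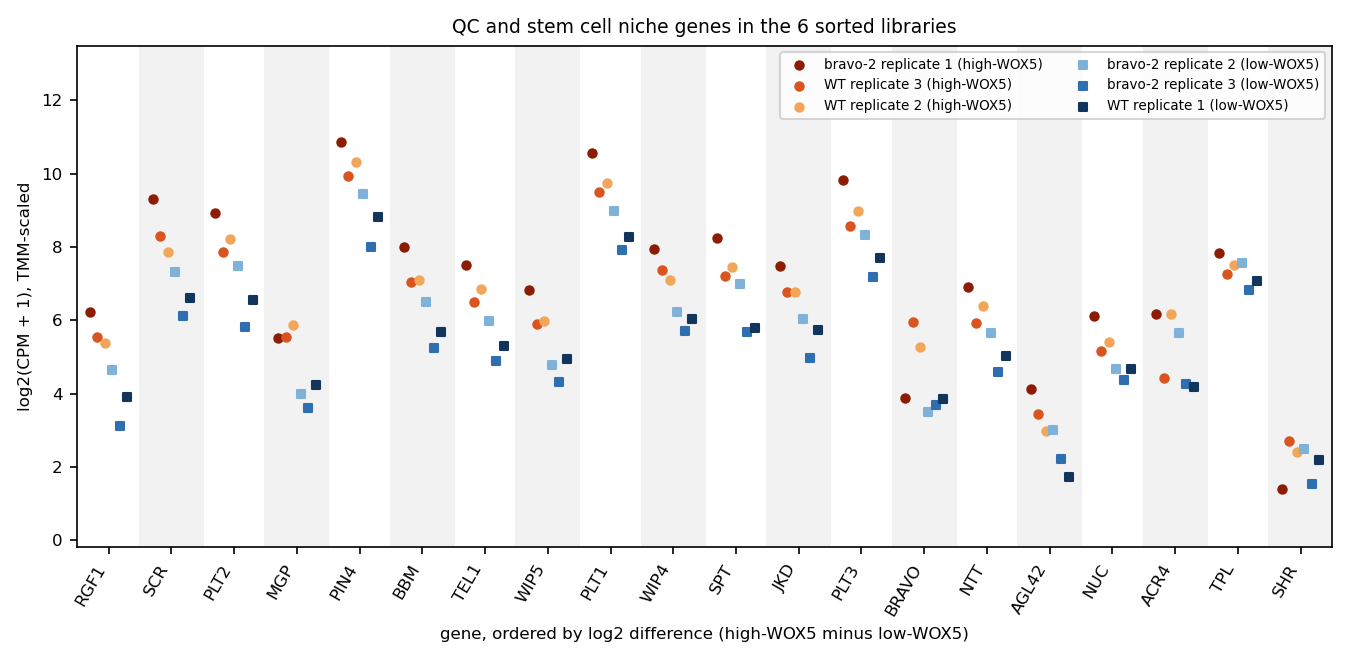
The level of 20 QC and stem cell niche genes is plotted as log2(CPM + 1), with 1 point per library, circles for high-WOX5 and squares for low-WOX5 libraries. At 16 genes all circles lie above all squares, and bravo-2 replicate 1 is the highest library at 17 genes.

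Auxin genes had differences of both signs. Of 27 described genes, 11 had positive and 16 negative differences, and 7 were higher and 3 lower by at least 2-fold without overlap, beside 9.12% and 7.43% of all genes. Higher genes included synthesis enzymes: TAA1, which makes indole-3-pyruvate, had 226.1, 163.9 and 150.8 CPM in the high-WOX5 libraries, against 84.3, 34.9 and 67.1 CPM in the low-WOX5 libraries. YUC3, which acts on that product, had 1046, 477.4 and 737.5 CPM in the high-WOX5 libraries, against 410.4, 196.5 and 209.4 CPM in the low-WOX5 libraries. The carriers PIN4 and LAX2 had log2 differences of 1.62 and 1.67. The noncanonical repressors of auxin response IAA20 and IAA33 were also higher, at 1.73 and 1.16. The 3 lower genes were the synthesis gene YUC5 (-1.93) and the repressors IAA1 (-1.25) and IAA14 (-1.27). IAA19 had 4.07, 142.6 and 75.5 CPM in the high-WOX5 libraries, against 70.3, 262.7 and 148.0 CPM in the low-WOX5 libraries, with bravo-2 replicate 1 far below the rest. Without that library its log2 difference was -0.41, against -1.88 with it. The median of the auxin list was -0.56, and -0.05 without bravo-2 replicate 1.

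Of 13 vascular genes that passed the filter, 5 were higher and 1 was lower by at least 2-fold without overlap, beside 9.12% and 7.43% of all genes. Of the class III HD-ZIP family, which patterns the stele, CNA (ATHB-15) had 12.1, 3.94 and 13.8 CPM in the high-WOX5 libraries, against 0, 0.188 and 2.53 CPM in the low-WOX5 libraries, a log2 difference of 2.61. HB-8 had 43.9, 29.6 and 79.0 CPM in the high-WOX5 libraries, against 21.4, 10.2 and 19.3 CPM in the low-WOX5 libraries. PHV had a smaller difference without overlap (0.82), and PHB and REV had 1.63 and 0.77 with overlapping sets. LHW, a bHLH factor of the young stele, and LOG4, an enzyme that activates cytokinin, had 1.62 and 1.63. The lower gene was SUC2, the sucrose carrier of phloem companion cells, with 0, 1.09 and 0 CPM in the high-WOX5 libraries, against 9.69, 7.91 and 3.76 CPM in the low-WOX5 libraries. The other 14 of the 27 listed genes, among them the xylem switches VND6 and VND7 and the phloem factor APL, stayed under the filter and reached at most 120 counts in a library.

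Genes of cell division were higher in the high-WOX5 libraries, with 1 low-WOX5 library close to them. Of 38 described cell cycle genes, 34 had positive differences and 14 had sets that did not overlap, all higher. Of the 14, 12 reached 2-fold, and the shares of all genes were 15.7% and 9.12%. The median was 1.05, with 1.38 within bravo-2, 1.12 within WT and 0.90 without bravo-2 replicate 1. Added together, the 38 genes had 2069, 1197 and 1294 CPM in the high-WOX5 libraries, against 1389, 524.7 and 622.3 CPM in the low-WOX5 libraries. In this sum bravo-2 replicate 2 lay inside the range of the high-WOX5 libraries, unlike in the sum of the niche genes. Accordingly, the median cell cycle difference was 0.58 between bravo-2 replicates 1 and 2 and 1.24 between bravo-2 replicate 1 and WT replicate 1.

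Mitotic genes held most of the non-overlapping members. CDKB2;2, a plant-specific kinase of the G2-to-M transition, had 12.2, 16.6 and 6.65 CPM in the high-WOX5 libraries, against 3.62, 0.941 and 2.12 CPM in the low-WOX5 libraries. HIK, a kinesin needed for the cell plate, had 33.5, 33.3 and 25.9 CPM in the high-WOX5 libraries, against 15.8, 1.41 and 13.1 CPM in the low-WOX5 libraries. The B-type cyclins CYCB1;1, CYCB1;2 and CYCB3;1 had log2 differences of 1.65, 1.70 and 1.49, and the reads of CYCB1;2 were shared with other genes in all 6 libraries. CYCB1;1 had 13.7, 18.0 and 15.2 CPM in the high-WOX5 libraries, against 12.6, 0.471 and 6.45 CPM in the low-WOX5 libraries. At this gene bravo-2 replicate 2 came close to bravo-2 replicate 1. The kinases AUR1 and AUR2 and the CDC20.1 activator of the anaphase complex had 1.18, 1.27 and 1.099, and CYCA1;1, an A-type cyclin, had 1.40. The other B-type kinases counted as higher were CDKB2;1 (1.56) and CDKB1;2 (1.19), the second with fractional counts in all 6 libraries. CYCD3;3, a D-type cyclin of G1, had 66.4, 33.8 and 49.8 CPM in the high-WOX5 libraries, against 32.4, 19.6 and 19.4 CPM in the low-WOX5 libraries, a log2 difference of 1.03 in which the lowest high-WOX5 and highest low-WOX5 libraries nearly met. The replication genes MCM2 to MCM7 had log2 differences of 0.51 to 1.40, all with overlapping sets, and CDC6, KRP2, CYCD3;1 and CDT1A had negative differences of -0.62 to -0.16, also overlapping.

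Promoters of the higher mitotic genes are shown because such genes are known to be driven by MYB3R factors through the mitosis-specific activator (MSA) element, whose core is AACGG. The 250 bases before the gene start in the RefSeq annotation of TAIR10.1 were searched on both strands for AACGG, so that CCGTT marks the other strand. The core was present in 7 of the 12 higher cell cycle genes (58.3%), in 15 of all 38 (39.5%) and in 22.8% of 15689 genes with such a window. Among the 1430 windows of genes higher in the high-WOX5 libraries the share was 24.8%. The windows of CYCB1;1 (chr4:17624309-17624558 on the minus strand), CYCB1;2 (chr5:1861704-1861953 on the minus strand) and CYCA1;1 (chr1:16777353-16777602 on the minus strand) hold 3, 4 and 2 matches, given in capitals, 5′ to 3′ towards the gene. A match is a description of these letters only.
CYCB1;1: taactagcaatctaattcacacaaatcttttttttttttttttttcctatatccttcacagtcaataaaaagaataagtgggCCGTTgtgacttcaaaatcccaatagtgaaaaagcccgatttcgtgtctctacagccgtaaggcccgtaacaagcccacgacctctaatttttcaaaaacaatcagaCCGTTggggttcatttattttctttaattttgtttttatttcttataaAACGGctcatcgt
CYCB1;2: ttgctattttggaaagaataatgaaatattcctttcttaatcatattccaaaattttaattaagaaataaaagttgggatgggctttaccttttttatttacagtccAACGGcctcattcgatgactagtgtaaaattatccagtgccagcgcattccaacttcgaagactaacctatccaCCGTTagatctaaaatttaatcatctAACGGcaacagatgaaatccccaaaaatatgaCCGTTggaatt
CYCA1;1: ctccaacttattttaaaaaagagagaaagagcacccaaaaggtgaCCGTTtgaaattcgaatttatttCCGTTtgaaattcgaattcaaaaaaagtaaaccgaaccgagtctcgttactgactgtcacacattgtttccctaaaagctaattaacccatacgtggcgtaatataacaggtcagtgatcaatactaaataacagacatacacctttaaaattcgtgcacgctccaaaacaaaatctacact

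Histones and ribosomal proteins had smaller differences. Of 35 histone genes 31 had positive differences, with a median of 0.49. At 6 the sets did not overlap, all higher, beside 15.7% of all genes. HTA8, a histone H2A gene, was the only one higher by 2-fold without overlap (1.44), beside 9.12% of all genes. Of 85 genes annotated as cytosolic ribosomal proteins 73 had positive differences with a median of 0.66. At 0 of the 85 did the sets not overlap, beside 15.7% higher and 13.4% lower of all genes. Their summed level was 26588, 30255 and 21645 CPM in the high-WOX5 libraries, against 31424, 12175 and 12337 CPM in the low-WOX5 libraries. The highest library was thus a low-WOX5 one, bravo-2 replicate 2, which was also the highest at 39 of the 85 genes.

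Genes of the plastid genome were mostly higher in the high-WOX5 libraries. Of 31 that passed the filter, 30 had positive differences. At 18 the sets did not overlap, all higher, and 4 of these reached 2-fold, beside 15.7% and 9.12% of all genes. The 31 genes had a median of 0.75, and of 0.78 without bravo-2 replicate 1. Their summed level was 470.2, 515.5 and 444.4 CPM in the high-WOX5 libraries, against 270.7, 277.3 and 247.8 CPM in the low-WOX5 libraries. All plastid genes together took a low share of each library's total, 0.0540 to 0.0685% in the high-WOX5 set and 0.0240 to 0.0314% in the low-WOX5 set, and in the sum the 3 libraries of a set were close to each other. The largest differences were at ATCG00340 (1.66), ATCG00180 (1.64), ATCG00170 (1.18) and ATCG00350 (1.16). Nuclear genes annotated as other ribosomal proteins, a list that includes the bacterial-type proteins of plastids and mitochondria, held 11 genes higher by 2-fold without overlap among 205 and 0 lower. This is a smaller share than the 9.12% of all genes, but the list also holds cytosolic proteins such as RPS6 and RPL5B. The share among the plastid and mitochondrial proteins alone was not counted. The 11 were RPS9 (1.57), EMB3113 (1.41), EMB3126 (1.25), AT3G13120 (1.23), RPS1 (1.22), RPL27 (1.21), emb1473 (1.205), RPL12-C (1.15), AT5G47190 (1.09), AT1G06380 (1.08) and AT3G01790 (1.01). RABE1b, the elongation factor Tu of plastids, had 11.9, 22.0 and 14.1 CPM in the high-WOX5 libraries, against 2.02, 0 and 0 CPM in the low-WOX5 libraries, the largest difference of all genes described (3.51), although it overlaps AT4G20350 and AT4G20362 and its estimated counts were fractional in 4 libraries. Of 11 nuclear photosynthesis genes listed, 10 stayed under the filter with at most 64 counts in a library, and LHCB2.1 and RBCS3B had 0 counts in all 6. The 9 described mitochondrial genes had a median of 0.42.

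**Figure D3:**
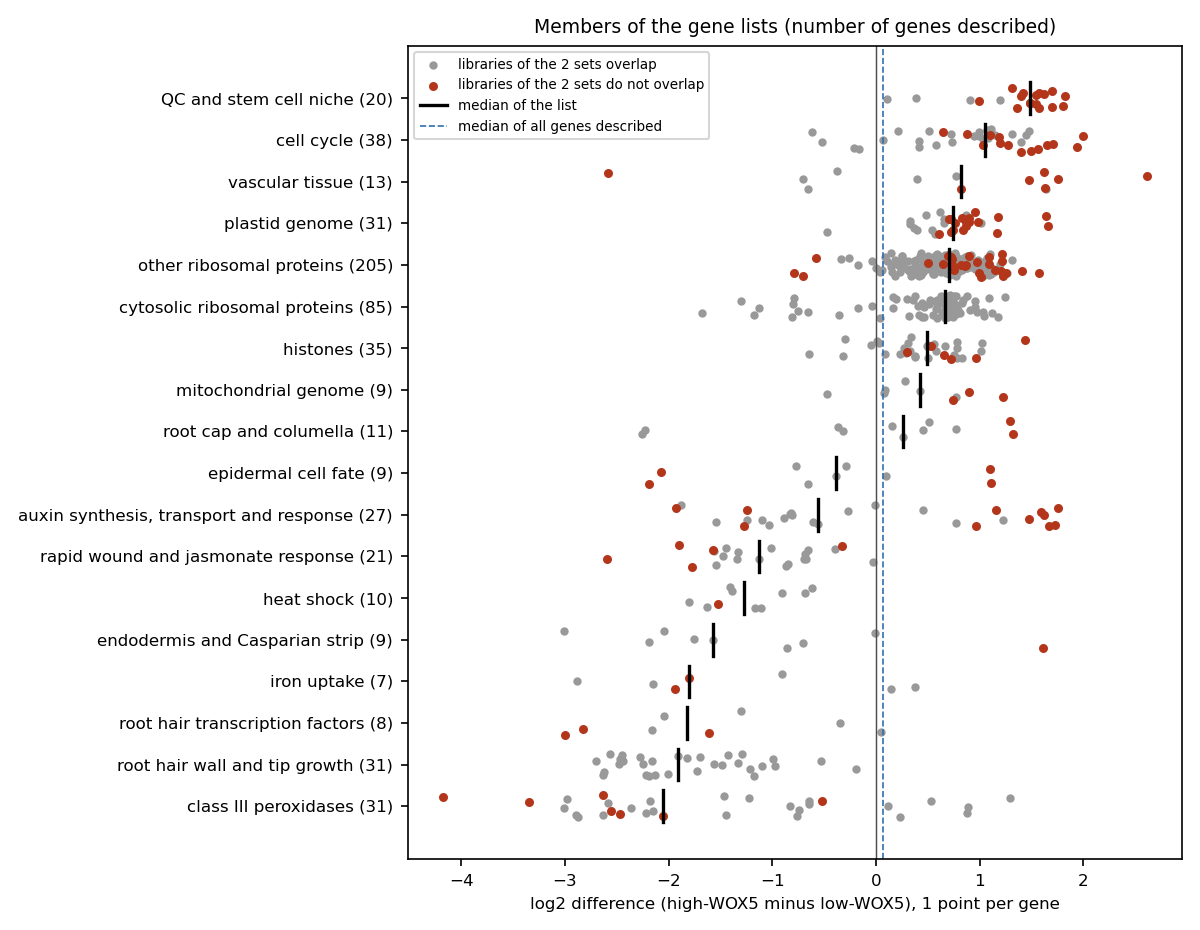
The log2 difference between high-WOX5 and low-WOX5 libraries is plotted for each described gene of 18 lists, 1 point per gene, with red points for genes at which the sets do not overlap, a black bar for the list median and a dashed line for the median of all genes (0.07). Niche genes have the highest median (1.49) and class III peroxidases the lowest (-2.06) of the lists drawn.

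Root hair genes were lower in the mean of the high-WOX5 libraries, but the difference was small when bravo-2 replicate 1 was left out. All 31 genes of root hair wall and tip growth passed the filter and all had negative differences, with a median of -1.91. At 0 of them were the sets apart, beside 15.7% higher and 13.4% lower of all genes. The lowest library at all 31 was bravo-2 replicate 1. Their summed level was 436.3, 12025 and 7821 CPM in the high-WOX5 libraries, against 4779, 12303 and 14962 CPM in the low-WOX5 libraries. The second lowest library was a low-WOX5 one, bravo-2 replicate 2. Within WT the median was -0.67, within bravo-2 it was -5.78, and without bravo-2 replicate 1 it was -0.07. EXPA7, an expansin that loosens the wall of hair cells, had 1.14, 481.9 and 299.6 CPM in the high-WOX5 libraries, against 209.1, 528.0 and 662.8 CPM in the low-WOX5 libraries. COW1, a lipid transfer protein of the hair tip, had 0.929, 277.6 and 188.4 CPM in the high-WOX5 libraries, against 144.6, 489.6 and 292.3 CPM in the low-WOX5 libraries. XTH14 and the exchange factor GEF3, which marks the site of hair outgrowth, had log2 differences of -2.62 and -2.70, and GEF3 had fractional counts in all 6 libraries.

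Of 8 described transcription factor genes of the hair cascade, 3 were lower by 2-fold without overlap, beside 7.43% of all genes. The median of the 8 was -1.83, or -0.29 without bravo-2 replicate 1. RHD6 (AT1G66470, chr1:24795214-24797015), the bHLH factor at the top of the cascade, had 0.0714, 41.1 and 35.0 CPM in the high-WOX5 libraries, against 62.8, 92.5 and 96.5 CPM in the low-WOX5 libraries. Its log2 difference was -2.83, with -6.17 within bravo-2, -1.32 within WT and -1.09 without bravo-2 replicate 1. LRL2 had 0.429, 15.2 and 10.8 CPM in the high-WOX5 libraries, against 45.2, 48.6 and 60.4 CPM in the low-WOX5 libraries. RSL1, a close relative of RHD6, was lower as well (-1.61). By contrast RSL4, the factor that sets hair length, had 0.857, 135.4 and 82.0 CPM in the high-WOX5 libraries, against 51.0, 196.4 and 182.3 CPM in the low-WOX5 libraries, and LRL3 had 1.36, 265.1 and 123.8 CPM in the high-WOX5 libraries, against 72.0, 277.3 and 268.1 CPM in the low-WOX5 libraries. At RSL4 and LRL3 the sets overlapped, and without bravo-2 replicate 1 the differences were -0.20 and 0.06.

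Promoters of hair wall genes are shown because RSL factors are known to act on such genes through a root hair element. The degenerate sequence of this element was searched on both strands of the same 250 bases and was found in 8 of 31 wall and tip growth genes (25.8%), in 0 of 8 hair transcription factor genes and in 0.829% of all 15689 windows. Among the 1167 windows of genes lower in the high-WOX5 libraries the share was 0.943%, close to that of all windows. The windows of EXPA7 (chr1:4276255-4276504 on the plus strand), LRX1 (chr1:4069742-4069991 on the plus strand), which encodes an extensin-like wall protein, and PRP3 (chr3:23182472-23182721 on the plus strand), which encodes a proline-rich wall protein, each hold 1 match, given in capitals.
EXPA7: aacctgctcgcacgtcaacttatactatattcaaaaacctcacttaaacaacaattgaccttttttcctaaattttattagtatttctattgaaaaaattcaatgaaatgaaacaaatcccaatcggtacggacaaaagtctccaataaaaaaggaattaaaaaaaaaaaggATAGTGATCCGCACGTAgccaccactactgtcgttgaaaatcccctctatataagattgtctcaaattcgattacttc
LRX1: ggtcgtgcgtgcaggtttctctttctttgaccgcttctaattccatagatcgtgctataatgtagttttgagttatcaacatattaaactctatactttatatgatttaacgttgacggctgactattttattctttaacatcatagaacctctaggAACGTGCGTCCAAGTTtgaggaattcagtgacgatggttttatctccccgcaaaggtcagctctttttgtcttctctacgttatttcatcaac
PRP3: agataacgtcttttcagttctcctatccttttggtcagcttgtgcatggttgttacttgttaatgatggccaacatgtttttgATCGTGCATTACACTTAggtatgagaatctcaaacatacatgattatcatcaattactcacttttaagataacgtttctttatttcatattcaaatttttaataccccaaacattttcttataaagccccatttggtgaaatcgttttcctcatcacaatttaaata

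Fate genes of the epidermis were divided. Of 9 described, 2 were higher and 2 lower by 2-fold without overlap, beside 9.12% and 7.43% of all genes. GL2, the HD-ZIP factor that represses hair fate, had 1.79, 38.1 and 9.93 CPM in the high-WOX5 libraries, against 42.4, 40.3 and 61.4 CPM in the low-WOX5 libraries. MYB23, which acts in the same non-hair cells, had 0.214, 5.25 and 4.71 CPM in the high-WOX5 libraries, against 12.046, 15.7 and 13.8 CPM in the low-WOX5 libraries. Both were lower without overlap, although WT replicate 3 nearly met bravo-2 replicate 3 at GL2. GL3, the bHLH partner in the complex that turns GL2 on, and SCM, the receptor kinase that positions the cell files, were higher without overlap, with log2 differences of 1.099 and 1.11. The other 5 described genes, WER, CPC, TTG1, EGL3 and GEM, had overlapping sets and log2 differences of -0.78 to 0.10.

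Class III peroxidases, secreted enzymes that oxidise wall phenolics, contained some of the largest differences. Of 74 annotated genes 31 passed the filter, and 25 had negative differences. By 2-fold without overlap 6 were lower and 0 higher, beside 7.43% and 9.12% of all genes. AT2G18980 had 1.57, 43.8 and 81.1 CPM in the high-WOX5 libraries, against 210.0, 446.1 and 592.3 CPM in the low-WOX5 libraries, the most negative difference of all genes described (-4.18). AT2G37130 had 4.72, 20.4 and 59.6 CPM in the high-WOX5 libraries, against 95.0, 312.3 and 256.5 CPM in the low-WOX5 libraries. AT4G30170 had 49.8, 566.3 and 688.5 CPM in the high-WOX5 libraries, against 733.1, 2337 and 2367 CPM in the low-WOX5 libraries. The other 3 lower genes were AT5G39580 (-2.64), AT4G37520 (-2.47) and AT5G15180 (-2.06). At the first 3 genes WT replicate 1 and bravo-2 replicate 3 were the highest libraries, while bravo-2 replicate 1 was the lowest library at 24 of the 31 genes. The median was -2.06, and -0.50 without bravo-2 replicate 1.

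Endodermal genes other than SCL3 did not separate the sets. CASP1, which builds the Casparian strip, had 3.43, 89.2 and 0.842 CPM in the high-WOX5 libraries, against 5.39, 98.9 and 108.4 CPM in the low-WOX5 libraries. PER64, a peroxidase of that strip, had 0, 95.2 and 0.926 CPM in the high-WOX5 libraries, against 11.5, 91.3 and 83.8 CPM in the low-WOX5 libraries. In both, WT replicate 3 was close to WT replicate 1 and bravo-2 replicate 3, and the other 3 libraries were low. Of 9 described endodermal genes 8 had negative differences and 0 of these were without overlap, beside 13.4% of all genes. The median of the 9 was -1.57, and -0.64 without bravo-2 replicate 1. Markers of the cortex were few, and 2 of 3 passed the filter in opposite directions: AT1G62500 had a log2 difference of 1.48 and AT1G62510 one of -2.80.

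Root cap and columella genes were also mixed. FEZ, a NAC factor of the root cap stem cells, had 43.5, 23.7 and 68.3 CPM in the high-WOX5 libraries, against 21.3, 8.94 and 21.2 CPM in the low-WOX5 libraries. PGM1, an enzyme of the starch grains of columella cells, had 76.0, 41.6 and 66.4 CPM in the high-WOX5 libraries, against 41.0, 13.9 and 23.0 CPM in the low-WOX5 libraries. Both were higher by 2-fold without overlap, which is 2 of 11 described genes, beside 9.12% of all genes. CEP2, a protease of dying cap cells, had 15.9, 274.5 and 226.1 CPM in the high-WOX5 libraries, against 257.6, 671.9 and 624.3 CPM in the low-WOX5 libraries, and the aspartyl protease gene AT4G04460 had a log2 difference of -2.26, both with overlapping sets. SMB, BRN1 and BRN2, which mark cap maturation, had 0.26, 0.15 and -0.37, and the list median was 0.26.

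**Figure D4:**
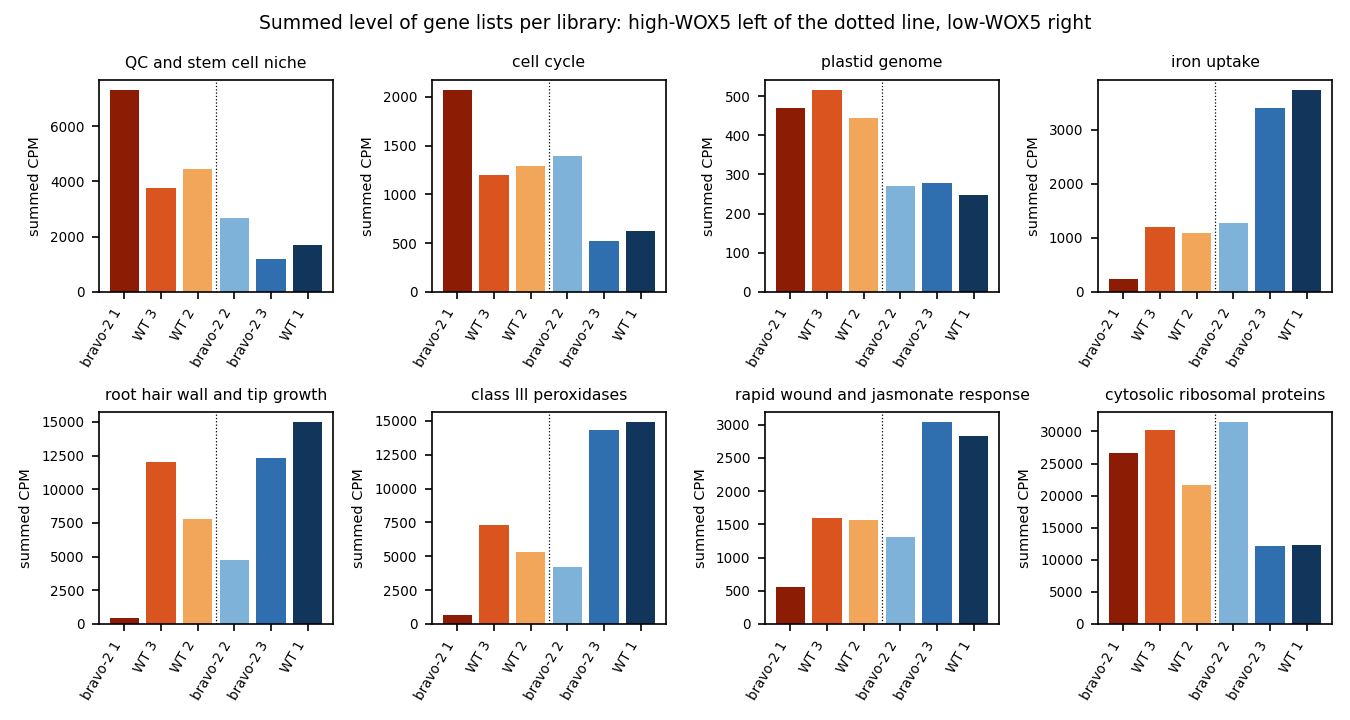
Bars give the summed CPM of 8 gene lists in each library, with the high-WOX5 libraries left of the dotted line and the low-WOX5 libraries right of it. In the plastid and niche panels every high-WOX5 bar is above every low-WOX5 bar, whereas bravo-2 replicate 2 is the highest library for cytosolic ribosomal proteins and the second lowest for root hair wall genes.

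Stress genes had negative differences, and bravo-2 replicate 1 was the lowest library at 17 of the 21 described genes of the rapid wound and jasmonate response. Such genes are known to respond when tissue is wounded, as in protoplasting. All 21 had negative differences, 5 without overlap and 4 of these by 2-fold, beside 13.4% and 7.43% of all genes. The 21 genes had a median of -1.13, and of -0.64 without bravo-2 replicate 1. In sum they had 559.8, 1600.5 and 1571 CPM in the high-WOX5 libraries, against 1305, 3035 and 2822 CPM in the low-WOX5 libraries. TCH3, a calmodulin-like protein induced by touch, had 5.43, 26.0 and 49.1 CPM in the high-WOX5 libraries, against 105.1, 126.3 and 140.2 CPM in the low-WOX5 libraries. WRKY40, an early wound factor, had 20.4, 76.4 and 90.09 CPM in the high-WOX5 libraries, against 110.0, 177.9 and 198.7 CPM in the low-WOX5 libraries. ERF5, an ethylene response factor, and JAZ10, a jasmonate repressor, had log2 differences of -1.90 and -1.77. These values moved with the sets, and their part in the other differences was not tested.

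Heat shock genes differed in opposite directions within the 2 genotypes. Of 10 described genes, 0 were higher within bravo-2, with a median difference of -2.62, and 8 were higher within WT, with a median of 0.46, and this difference between the genotypes was not tested. Over all libraries all 10 had negative differences, with a median of -1.28 and of -0.70 without bravo-2 replicate 1. The sum of the 10 genes was 181.0, 972.0 and 822.0 CPM in the high-WOX5 libraries, against 936.4, 2235 and 1330.0 CPM in the low-WOX5 libraries, so that within WT the sum was lower in the high-WOX5 libraries although the median was positive. Of the 10 genes 1 was lower without overlap, beside 13.4% of all genes. This gene was HSFA7A, a heat shock factor, at 6.57, 33.7 and 29.0 CPM in the high-WOX5 libraries, against 37.4, 100.8 and 47.4 CPM in the low-WOX5 libraries. The low-oxygen list had 2 of 8 genes above the filter, of which PDC1, a fermentation enzyme, was higher (1.19) and HB1 overlapped (-0.11).

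Iron uptake genes formed a small group, with 7 of 18 above the filter and 4 at 0 counts in all libraries, and had a median of -1.81, or -1.07 without bravo-2 replicate 1. Of the 7 genes 5 had negative differences. The other 2 had positive differences of at most 0.38, with overlapping sets. PDR9, an exporter of coumarins and auxin precursors, had 85.7, 199.0 and 184.9 CPM in the high-WOX5 libraries, against 284.8, 788.3 and 609.1 CPM in the low-WOX5 libraries. F6H1, which makes the coumarin scopoletin, had 1.86, 11.3 and 8.5 CPM in the high-WOX5 libraries, against 19.4, 46.9 and 18.3 CPM in the low-WOX5 libraries. Both were lower by 2-fold without overlap, which is 2 of 7 genes, beside 7.43% of all genes. FRU, the bHLH factor that turns the uptake genes on, had 0.143, 59.7 and 37.5 CPM in the high-WOX5 libraries, against 52.4, 157.7 and 126.1 CPM in the low-WOX5 libraries, and AHA2, a proton pump, had a log2 difference of -2.15, both with overlap between the sets.

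Among genes whose sets did not overlap, the 12 largest positive differences are plotted by library. Of these and the most negative ones below, 24 genes together, 11 had a library at or under 3 counts. Differences at such values depend on the added 1 CPM. After RABE1b came AT5G22580, annotated as a stress-responsive barrel protein, with 8.5, 22.8 and 30.6 CPM in the high-WOX5 libraries, against 0.505, 1.41 and 6.13 CPM in the low-WOX5 libraries. Several encode proteins of the cytoskeleton. MAP65-4, which bundles microtubules, had 11.8, 6.78 and 6.4 CPM in the high-WOX5 libraries, against 0.337, 0.659 and 0.653 CPM in the low-WOX5 libraries. ATK1, a kinesin of the spindle, had 24.4, 22.3 and 31.0 CPM in the high-WOX5 libraries, against 3.29, 4.42 and 4.49 CPM in the low-WOX5 libraries, so that both sets were narrow and far apart. VIIIB, a class VIII myosin, had a log2 difference of 2.41 and iqd8, an IQ-domain protein that overlaps AT1G72660, one of 2.32. SAP, annotated as a WD40-like protein, had 12.002, 15.8 and 13.6 CPM in the high-WOX5 libraries, against 3.37, 1.51 and 1.31 CPM in the low-WOX5 libraries. IPMI2, an isopropylmalate isomerase, and SOT17, a sulfotransferase, had 2.31 and 2.31, and AT4G15730 and AT3G10880 had 2.31 and 2.30. CNA, described above, completed the 12. Of these genes 3 were highest in bravo-2 replicate 1, so it did not lead this group as it led the niche genes.

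The 12 most negative differences without overlap were larger in size, at -3.39 to -4.18. WRKY72, a defence factor, had 1.86, 7.37 and 6.15 CPM in the high-WOX5 libraries, against 76.2, 74.6 and 137.6 CPM in the low-WOX5 libraries. No high-WOX5 library came near the level of a low-WOX5 one. GSTU14, a glutathione transferase, had 0.286, 34.2 and 74.5 CPM in the high-WOX5 libraries, against 151.0, 283.8 and 329.0 CPM in the low-WOX5 libraries. UGT74F2, which joins glucose to salicylic acid, had 1.36, 71.0 and 119.4 CPM in the high-WOX5 libraries, against 145.7, 1273 and 277.3 CPM in the low-WOX5 libraries, with bravo-2 replicate 3 far above the rest. The beta-glucosidases BGLU34 and BGLU35 had another pattern, since WT replicate 3 and not bravo-2 replicate 1 was the lowest library: BGLU34 had 16.1, 0.0729 and 51.0 CPM in the high-WOX5 libraries, against 129.5, 120.7 and 123.9 CPM in the low-WOX5 libraries. BGLU35 had 3.5, 0.146 and 19.95 CPM in the high-WOX5 libraries, against 78.7, 66.2 and 81.4 CPM in the low-WOX5 libraries. Both had fractional counts in 5 libraries and share reads with similar genes. ATHB13, an HD-ZIP factor, had 0, 2.99 and 4.46 CPM in the high-WOX5 libraries, against 20.6, 36.3 and 48.8 CPM in the low-WOX5 libraries. AT2G43590, a chitinase, EXPB1, an expansin, AT4G32950, a protein phosphatase, AT3G14260 and AT5G40590 had log2 differences of -3.82, -3.44, -3.64, -3.64 and -3.39. Of the 12 genes, 10 were lowest in bravo-2 replicate 1, which had 3 counts or fewer at 5, and without that library the 12 log2 differences were -1.99 to -4.03.

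**Figure D5:**
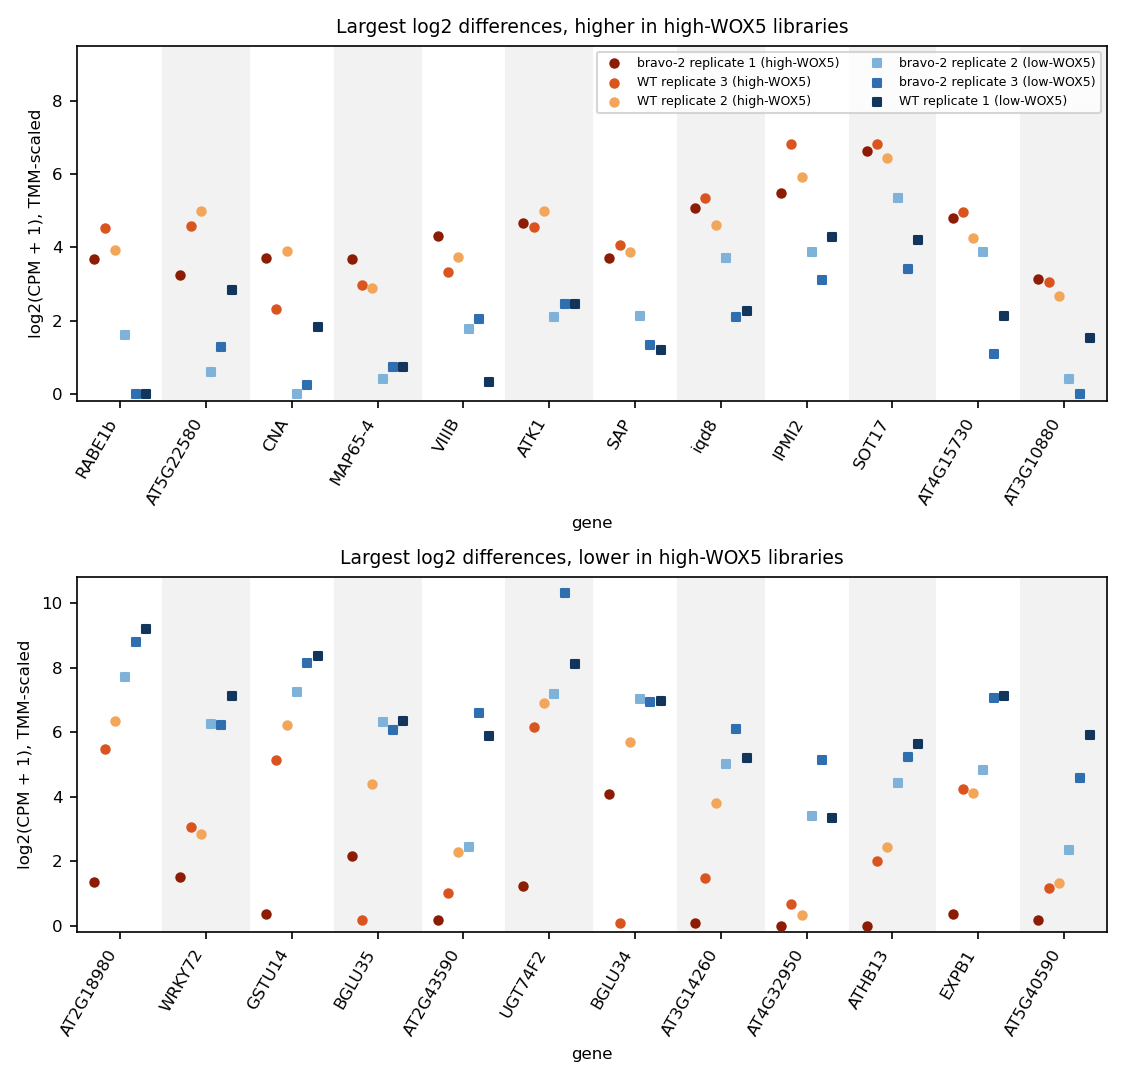
The level of the 12 genes with the largest positive (upper panel) and the 12 with the most negative log2 difference (lower panel) is plotted as log2(CPM + 1), with 1 point per library. Circles are high-WOX5 and squares low-WOX5 libraries, and they do not overlap at any of these genes, which were selected for that.

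The genes most like WOX5 over the 6 libraries were found by Pearson's r of log2(CPM + 1). The 6 points share their library sizes and the values that defined the sets, and r is a description. The genes named are the 5 highest and 5 lowest of 15738. With 6 points, extreme values of r follow from that choice, and nothing is read from their size. AT5G08565, annotated as an Spt4-like factor of transcription, had an r of 0.999 and 46.2, 41.6 and 31.7 CPM in the high-WOX5 libraries, against 19.4, 16.4 and 15.4 CPM in the low-WOX5 libraries. NFD2, a ribonuclease III protein, had an r of 0.998, CYP97B3, a cytochrome P450, 0.996, AT5G47190, a ribosomal protein of the L19 family, 0.997, and AT1G56610, an F-box-related protein with reads shared in all 6 libraries, 0.995. The most opposed was PGIP1, an inhibitor of fungal pectinases, with an r of -0.996 and 2.00, 2.26 and 6.4 CPM in the high-WOX5 libraries, against 23.2, 41.4 and 45.6 CPM in the low-WOX5 libraries. ACO1, an aconitase, had an r of -0.995 with a small log2 difference of -0.58, and LAG1, a ceramide synthase gene, had -0.994. AT4G31490 and AT4G31480, adjacent genes of the coatomer beta subunit, had -0.996 and -0.995, and RSEM divided reads between genes of this kind in all 6 libraries.

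Some of the genes named overlap another annotated gene, and since the counting is not stated to use strand, reads of the pair cannot be told apart. Among the higher genes these are PLT3, LOG4, CDKB2;1, CDKB2;2, CDKB1;2, AUR1, AUR2, GL3, EMB3126, AT3G01790, AT4G15730, AT3G10880 and AT1G56610. Among the genes with negative differences they are EXPA7, GEF3, GL2, CASP1, PER64, AT1G62510, AT4G04460, TCH3, WRKY40, JAZ10, F6H1, UGT74F2 and PGIP1. GL2, AHA2 and AT4G37520 also had fractional counts in 5 libraries, and AT4G04460 and AT3G01790 in all 6.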

How the data were processed

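RNA-seq libraries of GFP-sorted QC protoplasts, 3 bravo-2 and 3 WT, were analysed. The authors used cutadapt for trimming, STAR for alignment to TAIR10 and RSEM with Araport11 for quantification, which gave the deposited estimated counts and TPM per gene of each library (versions are not given in the sources used here). They also found sorting to be a confounded factor, corrected for it with ARSyN and compared the genotypes with NOISeqBIO. Neither step was repeated here. Estimated counts are fractional where RSEM divided a read between genes, and 82.96% of the deposited non-zero counts were whole. They were rounded to whole numbers and scaled with TMM (edgeR 4.0.16, R 4.3.3), and genes averaging 4 CPM or more in either genotype were kept. The TMM factors were 0.814 to 1.264. The difference was the mean of log2(CPM + 1) in the high-WOX5 libraries minus that in the low-WOX5 libraries. A gene was counted as higher or lower when the libraries of the 2 sets did not overlap and the difference was at least 1, and no test was made because WOX5 chose the libraries. The deposited TPM served only to rank the libraries by WOX5 a second time, which gave the same sets.

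The genotype test used edgeR's quasi-likelihood fit on all 6 libraries with Benjamini-Hochberg adjustment, with DESeq2 1.42.0 as an alternative. Its p-values measure only the spread between these libraries, which may be technical. Floors and CPM cover counting error only. The 6 libraries and 21 gene lists, like the rules, were chosen with earlier results of these data known, and 2 further lists after their values had been seen. Of 37336 gene identifiers, 37039 were matched by locus tag to RefSeq names. Genes eligible to be named were the 12 most positive and 12 most negative without overlap, in each list the 4 largest differences and every member counted as higher or lower, the 5 most and 5 least correlated with WOX5, and BRAVO, RHD6 and CYCD3;3. Not every eligible list member is printed, and 1 gene is not reported here. Other list members named (SHR, NUC, TPL, ACR4, AGL42, PHV, REV, TOC1, GI and those given in ranges) were picked after their values were seen, to show members that did not separate or differed little. Coordinates and sequences were read from the RefSeq TAIR10.1 genome, since the deposited tables hold none. Scripts ran in Python 3.11.15 with pandas 2.3.3, numpy 2.4.6 and matplotlib 3.10.9, and the counting and fitting steps were tested on simulated data.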

Additional observations from a re-analysis of the deposited data

Results flagged for a closer look

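At 2 of the list members picked by the rule for named genes, the high-WOX5 libraries lay on opposite sides of the low-WOX5 libraries in bravo-2 and in WT, and this difference between the genotypes was not tested. RCA, which activates the carbon-fixing enzyme Rubisco, had a log2 difference of 0.60 within bravo-2 and -1.84 within WT. Its level was low, with 72, 46 and 25 counts in bravo-2 replicates 1 to 3 and 35, 2 and 0 counts in WT replicates 1 to 3. HSP17.6II, a small heat shock protein, had a log2 difference of -4.33 within bravo-2 and 1.14 within WT, and its list as a whole had medians of -2.62 within bravo-2 and 0.46 within WT, with 0 and 8 of 10 genes higher. It had 7, 330 and 326 counts in bravo-2 replicates 1 to 3 and 24, 58 and 85 counts in WT replicates 1 to 3.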

How the results depend on the processing

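The 129 named genes counted as higher or lower kept their sign in each of the 14 alternatives to the description in which they were measured, and 102 to 129 of them were still counted. These genes had been selected for sets that do not overlap. Leaving out or regrouping libraries could therefore hardly change a sign, and nothing is read from this. Of 2286 gene values under alternatives 21 moved by more than the spread between libraries, as did 11 of 321 list medians. That spread was the larger SD within a set and includes bravo-2 replicate 1. Leaving out this library could therefore hardly count as a move, and nothing is read from these counts. The root hair wall median, for example, went from -1.91 to -0.07 without it. The number of genes depended on the settings. Setting the 2 highest against the 2 lowest libraries gave 4219 higher and 3794 lower genes, where fewer libraries have to be apart. Taking CPM over the library total gave 2083 higher and 778 lower genes, and DESeq2's size factors 1070 and 1429. In alternatives chosen after seeing the data, no limit on the fold gave 2475 and 2110 genes and a limit of 4-fold 44 and 386. Leaving out 1 library in turn gave 1009 to 3943 higher and 825 to 3391 lower genes. The counts were 3943 and 3391 without bravo-2 replicate 2, 2186 and 2023 without WT replicate 3, and 825 lower genes without bravo-2 replicate 1. List medians changed sign for root cap genes (-0.12 with the 2 highest against the 2 lowest) and for the lists of 2 cortex and 2 low-oxygen genes. Between bravo-2 and WT, 0 genes were called by edgeR's quasi-likelihood test, with 125 at an unadjusted p below 0.05. DESeq2 called 13, a filter of at least 1 count 1, and leaving out 1 library 0 to 0. With the replicate number as a block 0 genes were called. The numbers do not pair the libraries, since same-numbered libraries deviated from their group means with correlations of -0.72, -0.07 and -0.43. The floor of 3 counts limits genes near 0, which applies to 108 of the 1169 lower genes in bravo-2 replicate 1.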

Other observations

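The following 2 gene lists were drawn up after the values had been seen, so their differences are descriptions that carry no weight of their own. Glucosinolates are sulphur-rich defence compounds, and the indole branch starts from tryptophan. Of 28 genes of their synthesis 16 passed the filter. In the high-WOX5 libraries 13 were higher and 1 lower by 2-fold without overlap, beside 9.12% and 7.43% of all genes. The 16 genes had a median log2 difference of 1.70, beside 0.07 over all genes. Their summed level was 9497, 8147 and 7239.9 CPM in the high-WOX5 libraries, against 4461, 3634 and 3576 CPM in the low-WOX5 libraries. CYP79B2 and CYP79B3, which convert tryptophan, were the first enzymes of the branch: CYP79B2 had 1522, 1120.2 and 1103 CPM in the high-WOX5 libraries, against 568.1, 189.5 and 226.3 CPM in the low-WOX5 libraries. CYP79B3 had 1335, 1042 and 894.5 CPM in the high-WOX5 libraries, against 461.0, 116.7 and 213.2 CPM in the low-WOX5 libraries. CYP83B1 (1.97), SUR1 (1.61), GSTF9 (1.76), UGT74B1 (1.34), the sulfotransferases SOT16 (1.88), SOT17 (2.31) and SOT18 (1.65), the APS kinase genes APK (1.41) and AKN2 (2.17) and the regulator MYB34 (1.29) were higher too. The exception was GSTF10, adjacent to GSTF9, with 263.3, 691.7 and 754.5 CPM in the high-WOX5 libraries, against 891.2, 1513 and 1379 CPM in the low-WOX5 libraries. The remaining higher gene was IPMI2 (2.31), also named above. Of the aliphatic genes listed, CYP79F1, CYP79F2, CYP83A1, MYB28 and MYB29 stayed under the filter. The counts of the list were not divided by branch. Without bravo-2 replicate 1 the median of the list was 1.67.

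Of 15 clock genes, 3 were higher and 1 lower by 2-fold without overlap, beside 9.12% and 7.43% of all genes. The 15 genes had a median log2 difference of 0.36. LHY, a morning gene, had 129.5, 62.8 and 100.7 CPM in the high-WOX5 libraries, against 50.7, 6.49 and 21.1 CPM in the low-WOX5 libraries. RVE8 and LNK2, which are active in the day, had log2 differences of 2.05 and 1.42. LUX, an evening gene, was lower, with 9.64, 34.1 and 24.9 CPM in the high-WOX5 libraries, against 42.8, 117.8 and 67.4 CPM in the low-WOX5 libraries. ELF4, which acts with LUX, had 0.5, 9.04 and 9.01 CPM in the high-WOX5 libraries, against 7.75, 40.2 and 22.9 CPM in the low-WOX5 libraries, with overlapping sets. TOC1 and GI had -0.23 and -0.07. The time of day at which each sort was done is not given in the sources used here, and its part in these differences was not tested. SOT18, GSTF10, LNK2 and LUX overlap another annotated gene, and their reads cannot be told apart from its reads without strand.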
